A study of Mus musculus with 16 samples.

Results

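The genes described here are 10 regulators of keratinocyte identity outside the hair follicle bulge: Lrig1, Plet1, Gata6, Gata3, Ehf, Klf4, Klf5, Prdm1, Grhl3 and Trp63. They were taken as the rows of both deposited tables whose mouse Ensembl identifier carries one of these symbols, and all 10 were found among the 55305 rows that the tables share. The rule itself uses the symbols alone, but the 10 genes were chosen with earlier results of these data known. The tables give normalised read counts, that is, reads per gene divided by 1 scaling factor per library, and all single values below are on that scale unless another is named.

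The series holds 16 RNA sequencing libraries of C57BL/6 mice, in which animals labelled GRK2 eKO are set against controls. Whole back skin gave 5 control and 5 eKO libraries, from mice aged 8 months. Hair follicle stem cells (HFSC), sorted as CD34+ α6-integrin+ bulge cells, gave 3 control and 3 eKO libraries. The HFSC sample labels give an age of 18 months, whereas the design text of the series gives 8 months. GRK2 is a kinase that phosphorylates activated G protein-coupled receptors, and eKO is not spelled out in the labels, nor are the allele, a Cre driver or the number of animals behind a library. The p-values below therefore measure the spread between these libraries, whatever its origin.

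The upper hair follicle is divided into the isthmus, the sebaceous duct and gland, and the infundibulum, which opens onto the skin surface. Each zone is kept by its own stem and progenitor cells, and Lrig1 and Plet1 mark cells of the isthmus while Gata6 marks the infundibulum and sebaceous duct. Bulge stem cells normally feed the lower follicle, and after wounding they can take up epidermal programmes in which Klf5, Ehf and Grhl3 take part. p63, encoded by Trp63, maintains the stratified epithelium as a whole.

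Libraries held 6428488 to 6729777 reads in HFSC controls, 6428584 to 9387378 in HFSC eKO, 11640611 to 14163394 in skin controls and 8213632 to 16383486 in skin eKO. Grk2 itself did not separate the genotypes: it ran from 121 to 144 in HFSC controls and from 104 to 122 in HFSC eKO (log2 difference -0.24, limma adjusted p 0.501), and from 1099.7 to 1492 in skin controls and 979.7 to 1224 in skin eKO (-0.22, adjusted p 0.343). Groups therefore follow the labels. A deletion of part of the transcript would not have to show in a count over the whole gene. Whether the allele is of that kind is not stated, and the reason for the Grk2 values was not tested. The sort markers were present in all 6 HFSC libraries, with Cd34 between 1157 and 1323 and Itga6 between 2047 and 3290. Ddx3y, a Y-linked gene, was at most 0.950 in skin control replicate 5 and skin eKO replicate 3, and in HFSC it was lower in every eKO library (359 to 434) than in every control library (1176 to 1216). In HFSC that difference and the genotype cannot be told apart, and skin results are also given below without those 2 libraries.

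RefSeq promoter windows of the GRCm38.p6 build were found for 6 of the 10 genes, and 4, chosen after the matches were seen, are shown because they cross the expression result with the motif that Krüppel-like factors such as Klf4 and Klf5 are known to bind. Grhl3 and Prdm1 rose in eKO bulge cells and Gata3 and Klf4 did not pass the test there. Each line is the 250 bases upstream of the annotated start, 5′ to 3′ on the gene's strand, and capitals mark CACCC or its reverse complement GGGTG, overlapping matches included. The Grhl3 window is chr4:135573633-135573882, the Prdm1 window chr10:44458749-44458998, the Gata3 window chr2:9878601-9878850 and the Klf4 window chr4:55532476-55532725, all on the minus strand.
Grhl3: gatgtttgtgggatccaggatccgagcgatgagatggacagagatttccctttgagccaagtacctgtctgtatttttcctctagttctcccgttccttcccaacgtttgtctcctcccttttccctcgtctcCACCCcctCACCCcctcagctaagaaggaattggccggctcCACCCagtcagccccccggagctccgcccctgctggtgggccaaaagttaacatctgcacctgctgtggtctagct
Prdm1: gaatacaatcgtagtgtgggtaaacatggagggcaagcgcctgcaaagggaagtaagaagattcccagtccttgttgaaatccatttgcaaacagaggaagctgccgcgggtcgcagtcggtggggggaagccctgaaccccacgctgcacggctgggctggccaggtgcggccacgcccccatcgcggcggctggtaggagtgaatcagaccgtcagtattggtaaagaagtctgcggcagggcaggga
Gata3: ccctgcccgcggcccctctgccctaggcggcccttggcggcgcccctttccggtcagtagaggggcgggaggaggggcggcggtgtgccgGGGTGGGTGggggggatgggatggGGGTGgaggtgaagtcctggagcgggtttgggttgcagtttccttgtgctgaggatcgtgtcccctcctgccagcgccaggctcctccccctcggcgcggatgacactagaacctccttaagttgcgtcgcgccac
Klf4: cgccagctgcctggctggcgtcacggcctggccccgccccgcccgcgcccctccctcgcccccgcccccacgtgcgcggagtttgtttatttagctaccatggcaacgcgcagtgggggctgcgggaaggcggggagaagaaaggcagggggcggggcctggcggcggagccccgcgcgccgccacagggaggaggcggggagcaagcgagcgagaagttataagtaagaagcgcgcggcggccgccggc
CACCC stood 3 times in the Grhl3 window and 3 times in the Gata3 window, and 0 times in those of Prdm1 and Klf4. The windows not shown held it 1 time for Lrig1, which rose, and 3 times for Plet1, which was not tested. Of the Lrig1 window, however, 153 bases lie inside the gene's own RefSeq span, and the 97 bases upstream of that span held 0 matches. Of 27025 RefSeq promoters, 51.3% held it within the same length. The GC box GGGCGG, searched on both strands, stood 4 times in the Klf4 window, 2 times in that of Gata3, 1 time in that of Grhl3 and 0 times in that of Prdm1, against 32.9% of all promoters with a match. The ETS core AGGAAG, the kind of site Ehf recognises, stood 1 time in the Prdm1 window and in none of the other three shown (29.2% of all promoters). The grainyhead palindrome AACCGGTT had no match in these 4 windows (0.122% of all promoters), and the core AGATAA that Gata factors are known to bind had none either (10.3%). A match describes letters in the window and is no evidence of binding.

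In sorted bulge cells, 6 of the 10 genes rose in eKO: Ehf 19.4-fold, Gata6 3.40-fold, Klf5 3.28-fold, Prdm1 3.23-fold, Grhl3 2.92-fold and Lrig1 1.39-fold. Klf4, Gata3 and Trp63 did not pass the test, none fell, and Plet1 was listed at 0 in every library. The test was limma on log2(value + 1) over 13784 genes, p-values being adjusted by Benjamini-Hochberg and called under 0.05, and it called 10.7% of all tested genes higher in eKO and 8.74% lower. The 6 called genes were also the 6 whose groups did not overlap, against 36.3% of tested genes without overlap in either direction and 18.9% with eKO higher. Over the 9 tested genes the median log2 difference was 1.55, and over all tested genes it was -0.03. Because the set was chosen with earlier results of these data known, these shares and medians describe it and are no test of it. In bulk RNA, a larger share of cells of one type and more RNA per cell cannot be told apart.

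**Figure D1:**
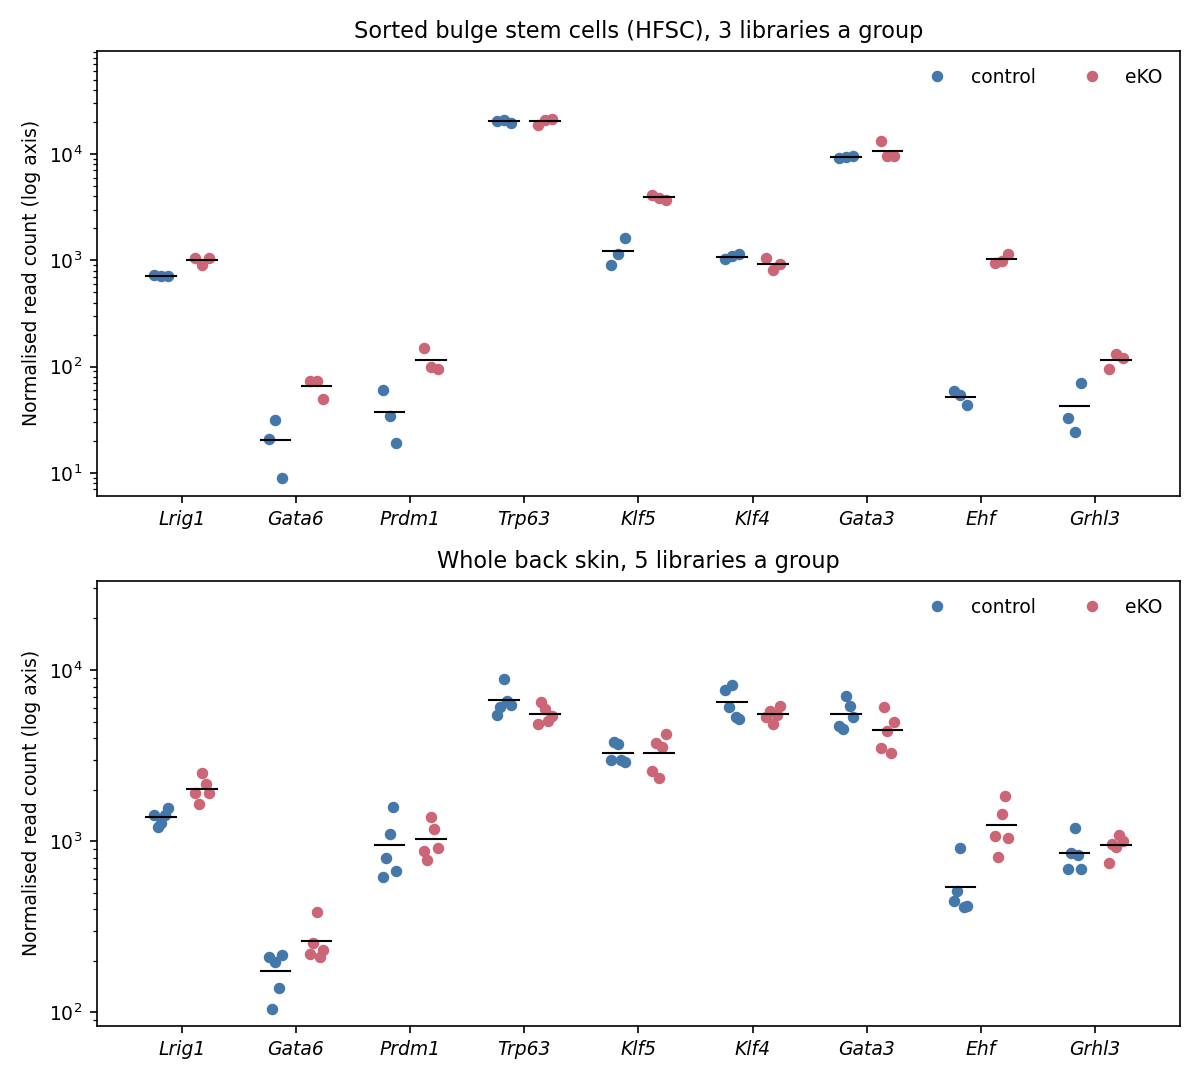
Normalised read count (log axis) of the 9 genes with reads in each HFSC library (upper panel, 3 a group) and each whole skin library (lower panel, 5 a group); points are libraries and black bars group means, and Plet1 is left out because it is listed at 0. In HFSC the eKO points of Lrig1, Gata6, Prdm1, Klf5, Ehf and Grhl3 lie above every control point, and in skin only those of Lrig1 do.

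Ehf, an ETS factor of epithelial differentiation, had the largest difference of the set. Its normalised read counts were 58.8, 53.6 and 44.0 in the 3 HFSC controls and 943.9, 990.9 and 1139.8 in the 3 eKO libraries (means 52.2 ± 7.5 and 1025 ± 102, SD, n = 3). The groups were more than an order of magnitude apart, in every library. The log2 difference was 4.28 (SE 0.19, limma adjusted p 2.66e-08), which placed Ehf 5th of 13784 genes by p-value and 76th by the size of the rise. All 15 alternative settings called it.

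Klf5, a Krüppel-like factor of proliferating basal keratinocytes, stood at 903.5, 1135 and 1627 in controls and at 4110.0, 3873 and 3692 in eKO. Its lowest eKO library was above its highest control library, and the controls differed more among themselves than the eKO libraries did (means 1222 ± 369 and 3892 ± 210). The log2 difference was 1.71 (SE 0.16, limma adjusted p 1.47e-05) and stood 110th of all tested genes by p-value. Klf4, its relative in barrier formation, showed no such step: controls were at 1017, 1089.8 and 1136 and eKO libraries at 1046, 807.9 and 915.0. One eKO library lay among the controls, and the difference of -0.23 (95% interval -0.50 to 0.03) had an adjusted p of 0.203.

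Gata6, the zinc finger factor of infundibulum and sebaceous duct, was scarce in control bulge cells at 20.9, 31.6 and 9.0 and reached 72.8, 73.4 and 50.1 in eKO. The control values rest on 9 to 30 reads per library. The log2 difference of 1.77 (SE 0.49, limma adjusted p 0.0242) was the least stable of the 6: it missed the threshold without control replicate 1 (0.057), control replicate 3 (0.083), eKO replicate 1 (0.061) or eKO replicate 2 (0.063). Gata3, which directs the inner root sheath lineage, overlapped between groups, at 9144, 9301 and 9659 in controls and 13088, 9646 and 9466 in eKO. Only 1 eKO library stood clearly above the controls, and the difference was 0.18 (95% interval -0.05 to 0.41, adjusted p 0.266).

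Prdm1, the repressor also called Blimp1, found in sebaceous and terminally differentiating cells, was at 59.8, 34.7 and 19.0 in controls and at 148.6, 99.8 and 95.9 in eKO. All eKO libraries were above all controls, with a log2 difference of 1.69 (SE 0.41, limma adjusted p 0.0126). Grhl3, a grainyhead-like factor of barrier formation and wound closure, was at 32.9, 24.2 and 70.0 in controls and at 94.8, 130.4 and 119 in eKO. The groups did not overlap, although the highest control came close to the lowest eKO library, and the difference was 1.55 (SE 0.39, adjusted p 0.0150). For Grhl3 the adjusted p rose to 0.059 without control replicate 1 and 0.068 without control replicate 2, whereas Prdm1 was called whichever library was left out.

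Lrig1, a transmembrane protein that restrains ErbB receptors and marks isthmus stem cells, gave 721.0, 711 and 719 in controls, the smallest spread of the set relative to its mean, and 1042, 905 and 1059 in eKO. The rise was small beside the others, at 0.48 on the log2 scale (SE 0.11, limma adjusted p 0.0112), and it was lost without control replicate 2 (0.051). With a prior variance held constant over expression levels in place of a trended one, Lrig1, Gata6, Prdm1 and Grhl3 came to adjusted p-values of 0.067, 0.063, 0.062 and 0.064, so that Ehf and Klf5 alone were still called. Gata6 was also lost with no filter on low values (0.053).

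Trp63 was level between the genotypes, at 20386, 20823 and 19361 in controls and 18549, 20967 and 21097 in eKO. The groups interleaved, and the 95% interval of the log2 difference ran from -0.15 to 0.15 (adjusted p 0.996). Plet1, a surface glycoprotein of the upper isthmus, was at 0 in all 16 libraries. A 0 of this kind may be a failed count, which was not tested. Gapdh, used by every cell, was listed at only 9.86 to 32.9 in HFSC and 117 to 252 in skin. Rpl13a was listed at 15.8 to 68.2 in HFSC and 131 to 326 in skin. Actb, by contrast, was listed at 3851 to 13091 in HFSC and 9066 to 14600 in skin. Of the Plet1 exon bases in GENCODE M21, 13.4% overlap Plet1os on the other strand, which was listed at 1.05 to 11.97 in HFSC and 47.6 to 203 in skin, and the strand setting of the counting is not given in the sources used here.

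To compare the genes with each other, reads were divided by library depth and by kilobases of exon (RPKM). In HFSC controls Trp63 (358 ± 12.8, SD, n = 3) and Gata3 (350 ± 9.5) led and did not differ beyond their spread, followed by Klf4 (52.7 ± 2.8), Klf5 (34.9 ± 10.5) and Lrig1 (19.1 ± 0.23). Grhl3 (2.26 ± 1.30), Ehf (1.39 ± 0.20), Prdm1 (1.01 ± 0.55) and Gata6 (0.468 ± 0.256) came last, with overlapping neighbours. In eKO, Klf5 (106 ± 4.9) stood above Klf4 (42.9 ± 5.3), and Ehf (26.0 ± 2.8) had come level with Lrig1 (25.4 ± 2.1). The risers other than Klf5 and Lrig1 thus started from the lowest 4 levels among the genes with reads.

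Genes that mark the same zones moved too. The shares to set beside this and the following HFSC lists are those over all tested genes, 10.7% called higher and 8.74% lower. Of 10 isthmus and infundibulum markers, all tested, 6 rose and 1 fell (median log2 difference 1.40). Krt79, a keratin of the infundibulum and sebaceous duct, went from 162 ± 31.1 to 2205 ± 260 (3.77), Defb6 rose by 3.42 on the log2 scale, Cst6 by 3.18 and Ly6d by 2.31, all with limma adjusted p-values of at most 1.73e-04. The 1 that fell was Lgr6, a receptor that marks isthmus stem cells, from 1969 ± 80.1 to 1493 ± 34.1 (-0.40, adjusted p 0.00895, and 0.052 without control replicate 2). It was named after its value was seen. Of 12 tested sebaceous genes of 13 listed, 8 rose and 1 fell (median 1.12), led by Elovl3 (3.80) and Soat1 (3.09), enzymes of sebum lipid synthesis, with Mc5r (2.43) and Cidea (2.30). Cidea was under 10 in every control and entered the test through eKO only, which fixed its direction. Its call was also lost without control replicate 1, control replicate 2 or eKO replicate 1 (adjusted p up to 0.071).

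Relatives of the 10 genes did not follow as a body. Of 22 paralogs, 15 were tested, 3 rose and 2 fell (median 0.16). Grhl1 rose from 513 ± 13.97 to 1183 ± 113 (log2 1.20, limma adjusted p 2.07e-05), Klf10 by 1.03 and Klf13 by 0.95. Lrig3 fell by 0.48 (adjusted p 0.0217) and Klf6 fell by 0.36 (0.0169). The first was lost without control replicate 1, control replicate 3 or eKO replicate 3 (up to 0.114) and the second without control replicate 1 or 2 (up to 0.087). Among 15 tested partner regulators of epidermal fate of 17 listed, 6 rose and 2 fell (median 0.22). Risers included Ovol1 (1.80), which drives keratinocytes out of the cycle, the Notch target Hes1 (1.31), Cebpa (1.28) and Cebpb (2.39). Cebpb was under 10 in every control and entered the test through eKO only, which fixed its direction. The chromatin organiser Satb1 fell by 1.29. Cebpb and Satb1 were lost when some libraries were left out: control replicates 1 and 2 and eKO replicate 1 for Cebpb (up to 0.089), and control replicates 2 and 3 and eKO replicates 1 and 3 for Satb1 (up to 0.112).

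The ErbB and Met receptors, which Lrig1 restrains, and their ligands were read as well. Of 9 tested of 13 listed, 4 rose and 1 fell (median 0.43). The ligand Tgfa rose from 83.2 ± 15.8 to 372 ± 38.4 (log2 2.16, limma adjusted p 2.08e-05), the ligands Epgn by 1.33 and Hbegf by 1.20, and the receptor Erbb3 by 0.74. Met, the receptor of hepatocyte growth factor, fell by 0.65 (adjusted p 0.0158) and was named after its value was seen. Epgn was lost without control replicate 1, control replicate 2 or eKO replicate 2 (up to 0.098), Hbegf without control replicate 2 or eKO replicate 3 (up to 0.070) and Met without control replicate 1 or 2 (up to 0.073).

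Epidermal differentiation genes, a programme in which Klf4, Grhl3, Ehf and Prdm1 take part, rose in 9 of 12 tested and fell in 1 (median 1.50). The late-stage protease Casp14 rose by 3.31 on the log2 scale, the transglutaminase Tgm3 by 3.30, the suprabasal keratin Krt1 by 3.19 and the protease Klk7 by 2.74, all with limma adjusted p-values of at most 1.63e-04. Basal genes and p63 targets were mixed, with 4 of 12 higher and 1 lower (median 0.07): Sfn (1.50) and Krt14 (1.29) rose, Krt5 rose by 0.52 and Lamb3 fell by 0.63, while Trp63 itself was level. Of 5 tested stress keratinocyte genes of 10 listed, 5 rose (median 3.40, or 2.70 with the gene at the floor of 3 reads set to its bound). Among them, 1 gene, Krt6b, was under 10 in every control and entered the test through eKO only, which fixed its direction. Among 14 bulge stem cell regulators 1 rose and 1 fell (median -0.13). Itga6, a marker of the sort, rose by 0.58 and Lgr5, a receptor that marks lower bulge and hair germ cells, fell by 0.94 (adjusted p 2.85e-06).

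**Figure D2:**
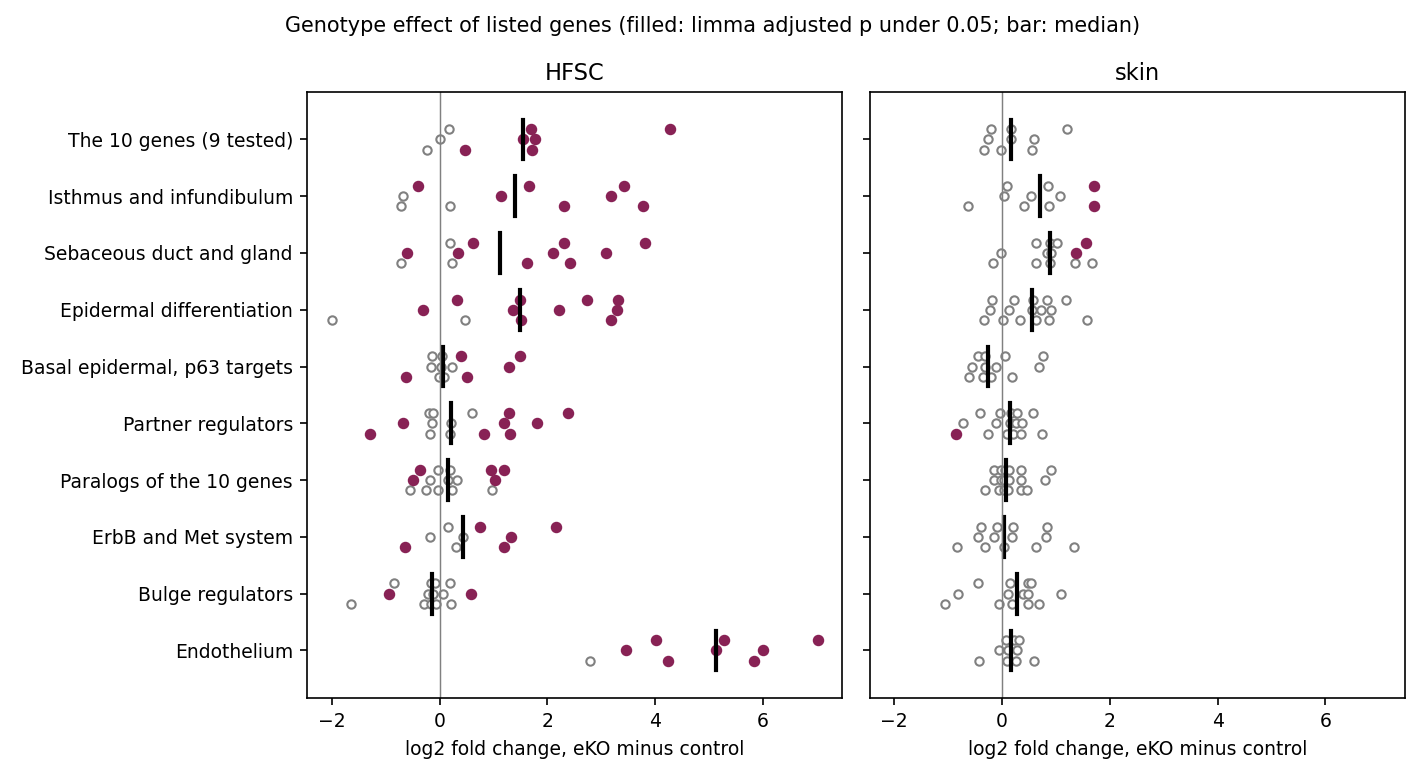
Log2 difference, eKO minus control, of every tested gene of 10 lists in HFSC (left) and whole skin (right); each point is a gene, filled points passed limma at an adjusted p under 0.05, and black bars are list medians. In HFSC the bar of endothelium (5.14) lies furthest right. Of its 9 tested genes, 7 passed the minimum of 10 only through eKO, which fixed their direction. The bars of the 10 genes (1.55), differentiation (1.50), isthmus and infundibulum (1.40) and sebaceous genes (1.12) also lie to the right of 0. That of the bulge regulators (-0.13) lies near 0, and in skin 5 listed genes are filled.

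Markers of other cells moved with the same libraries. The summed value of 10 endothelial markers was 26.3 to 47.0 in HFSC controls and 1099.5 to 1342 in eKO, with Vwf and Emcn at 0 in all controls and Egfl7 at 0 in all eKO libraries. Of the 9 tested, 7 were under 10 in every control and passed the minimum of 10 only through eKO, which fixed their direction, so their calls are not counted. Cidea, Cebpb, Krt6b, Dcn, Krt35 and Padi3 passed in the same way, which fixed their direction too. They are nevertheless among the risers counted for the other lists, so those counts include calls of fixed direction. None of the 9 tested genes of the set itself was under 10 in every control. Gata6, however, was at 9.0 in control replicate 3, so its controls alone did not meet the minimum and it entered the test with the help of eKO. Hair matrix and shaft genes rose in 8 of 9 tested of 13 in the table, with sums of 598 to 667 and 2402 to 2745 (Krt35 at 0 in controls, Krt86 in eKO, Tchh in both). Leukocyte markers had sums of 301 to 347 and 1239 to 2163, set mainly by Cd74 and H2-Ab1. Ptprc, which defines leukocytes, averaged 14.9 and 16.6, Itgam and Ms4a1 were at 0 in both groups, and of 4 tested of 13 listed 2 rose and 1, Lyz2, fell by 2.50 (lost without any 1 control replicate or eKO replicate 3, limma adjusted p up to 0.118). Fibroblast sums were 157 to 188 and 160.0 to 267 (2 of 5 tested of 10 listed, Dcn and Vim, rose, with Lum and Dpt at 0 throughout and Col3a1 and Pdgfrb at 0 in eKO and at most 1.05 in controls), and melanocyte sums were 1888 to 2269.8 and 622 to 950.4 (1 of 4 tested of 6 listed, Mitf, fell by 1.55). Their part in the rises of Ehf, Gata6, Klf5, Prdm1, Grhl3 and Lrig1 was not tested.

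In whole skin none of the 9 tested genes was called by limma, which called 0.374% of 16589 genes. At an unadjusted p under 0.05 there were 3, Lrig1, Ehf and Gata6, all higher in eKO, among 2348 such genes overall. The edgeR quasi-likelihood test also called none of the 9, and DESeq2 called Lrig1 and Ehf. DESeq2 was the more permissive test, with 656 genes called in all, against 54 by edgeR and 62 by limma. The median over the 9 genes was 0.16, and over all tested genes it was 5.91e-05. Among tested genes, 4.18% had groups without overlap and 1.74% with eKO higher; of the 9, Lrig1 alone did.

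Lrig1 gave 1420.0, 1207, 1282, 1413 and 1572 in the skin controls and 1909, 1659.9, 2489, 2170.0 and 1920.2 in eKO. Every eKO library was above every control library. The log2 difference was 0.55 (SE 0.12), close to that in bulge cells, with a limma adjusted p of 0.0764, an edgeR value of 0.089 and a DESeq2 value of 0.0031. Over 20 alternatives it ran from 0.0031 to 0.187, the highest without the 2 libraries that lack Ddx3y, where the difference was 0.52.

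Ehf gave 449, 513, 917, 415 and 417 in skin controls and 1079, 811, 1447, 1825 and 1047 in eKO. Control replicate 3 lay above the lowest eKO library, and the other 4 controls lay below all 5. The log2 difference was 1.21 (SE 0.26, limma adjusted p 0.0764), DESeq2 gave 0.0021, and without control replicate 3 the difference was 1.41 with a limma value of 0.052. Without the 2 libraries that lack Ddx3y it was 1.06 (0.272). Gata6 gave 212, 105, 198, 139 and 217 in controls and 221, 253, 387, 212 and 231 in eKO, so that 1 eKO library lay within the control range. Its difference was 0.60 (SE 0.24, adjusted p 0.284).

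The remaining 6 genes overlapped widely in skin. Klf5, which rose in bulge cells, was at 2887 to 3800.1 in controls and 2339.8 to 4205 in eKO (log2 -0.02, 95% interval -0.40 to 0.36, limma adjusted p 0.967). Grhl3 was at 689.6 to 1187 and 749 to 1087 (0.17, interval -0.18 to 0.52, adjusted p 0.670). Prdm1 was at 621 to 1579 and 775 to 1389 (0.16, interval -0.41 to 0.73, adjusted p 0.820). Klf4 (-0.21), Gata3 (-0.34) and Trp63 (-0.26) had adjusted p-values of 0.569, 0.464 and 0.452. The intervals of all 6 include 0, and those of Klf5, Grhl3 and Prdm1 end below the size of the rise in bulge cells.

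By RPKM, skin controls ranked the genes in another order than bulge cells: Klf4 (182 ± 30.8, SD, n = 5), Gata3 (121 ± 23.4), Trp63 (68.3 ± 12.3), Klf5 (54.2 ± 5.6), Grhl3 (26.3 ± 5.6), Lrig1 (21.4 ± 3.0), Prdm1 (14.9 ± 6.7), Ehf (8.32 ± 2.93) and Gata6 (2.31 ± 0.66). Klf4, Gata3 and Trp63 did not overlap with their neighbours above or below except Trp63 with Klf5, the run from Grhl3 to Ehf overlapped from one gene to the next, and Gata6 lay below all. The 2 tables were normalised separately, so levels across tissues are set side by side without a test. Ehf in eKO bulge cells, at 26.0, was above its level in control skin, whereas Prdm1 (2.91), Grhl3 (5.84) and Gata6 (1.42) in eKO bulge cells stayed below theirs.

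Whether the genotype effect differed between bulge cells and skin was tested directly, as the HFSC difference minus the skin difference in 1 limma fit of all 16 libraries over 13227 genes. It differed for Ehf, Klf5 and Grhl3, each more positive in HFSC, against 5.62% of tested genes called in either direction and 3.44% in the positive one. The difference was 3.07 for Ehf (SE 0.37, limma adjusted p 9.63e-05) and 1.73 for Klf5 (SE 0.28, adjusted p 0.00140), and both were called in all 24 alternatives. Grhl3 differed by 1.38 (SE 0.37, adjusted p 0.0383), in 12 of 24 alternatives. Its adjusted p passed 0.05 without HFSC control replicate 1 (0.105) or 2 (0.103), without HFSC eKO replicate 2 (0.075) or 3 (0.071), without skin control replicate 2 (0.059) or 3 (0.061), and without skin eKO replicate 1 (0.068), 2 (0.059), 3 (0.059) or 5 (0.056).

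**Figure D3:**
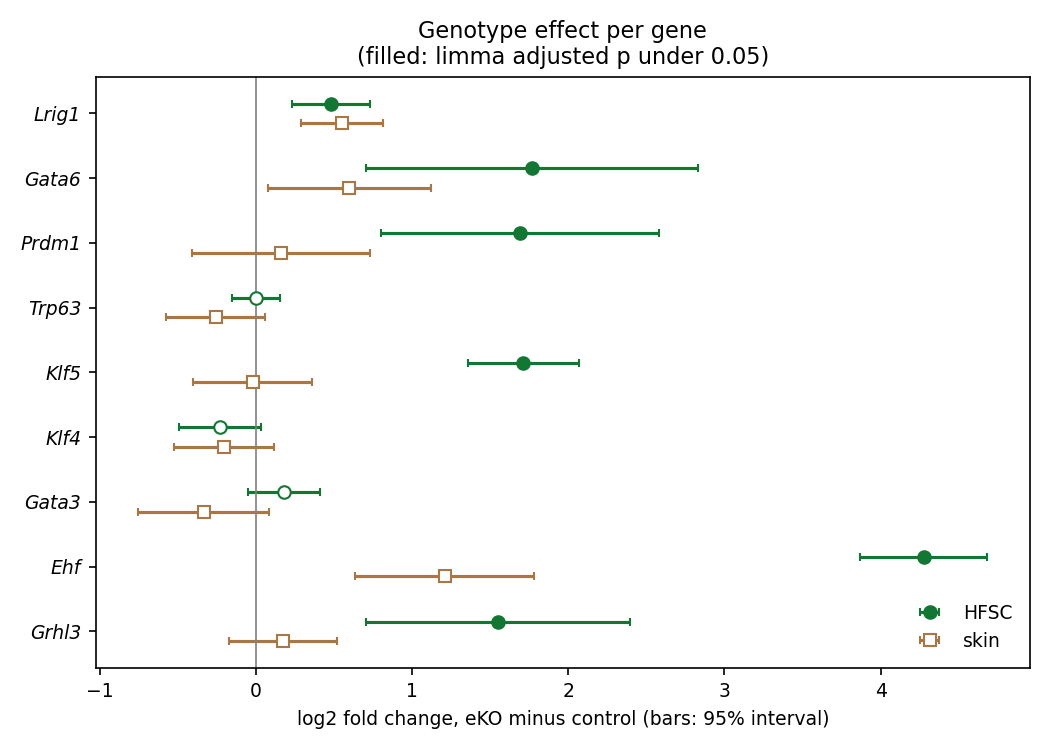
Log2 difference, eKO minus control, of the 9 tested genes in HFSC (green circles) and whole skin (brown squares) with 95% intervals; filled symbols passed limma at an adjusted p under 0.05. The effect differed between tissues for Ehf, Klf5 and Grhl3, the estimates of Lrig1 (0.48 and 0.55) and Klf4 (-0.23 and -0.21) lie together, and no skin symbol is filled.

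Prdm1 (1.53, limma adjusted p 0.0704) and Gata6 (1.17, adjusted p 0.173) had more positive estimates in HFSC that did not pass. Prdm1 passed without HFSC control replicate 1 (0.028) or skin control replicate 1 (0.0496). For Lrig1 the difference was -0.07 with a 95% interval from -0.43 to 0.29, for Klf4 it was -0.03 (-0.46 to 0.41), for Trp63 0.26 (-0.18 to 0.70) and for Gata3 0.52 (-0.07 to 1.10). HFSC and skin also differ in the labelled age and in RNA preparation, so tissue cannot be told apart from these. In HFSC, Ddx3y was at 359 to 434 in eKO and 1176 to 1216 in controls, and that imbalance enters the contrast too. Whole skin was not sorted for bulge cells, so its difference is that of all its cells together. Control RPKM was higher in skin than in HFSC for Grhl3 (26.3, 2.26), Ehf (8.32, 1.39) and Klf5 (54.2, 34.9), untested.

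Skin pieces differed in their hair growth genes, with a summed hair matrix and shaft level of 194 to 158700.4 in controls and 451 to 63634 in eKO. A score, the mean centred log2 value of those genes, was therefore fitted beside genotype. It called 2.31% of 16589 genes for a slope and none of the 9. That share includes the 12 tested genes of the score itself, whose slopes follow from how it was made. Prdm1, which is also made in follicles, came nearest, with 0.09 log2 units per unit of score (SE 0.03, limma p 0.00644, adjusted p 0.0996). Without skin control replicate 5 its adjusted p was 0.0444. At an unadjusted p under 0.05 it was the only 1 of the 9, by limma and by edgeR. Among all 16589 genes there were 3323 such genes by limma and 3311 by edgeR. With the score in the model the genotype differences of Lrig1 and Ehf in skin were 0.55 (adjusted p 0.056) and 1.21 (0.062).

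**Figure D4:**
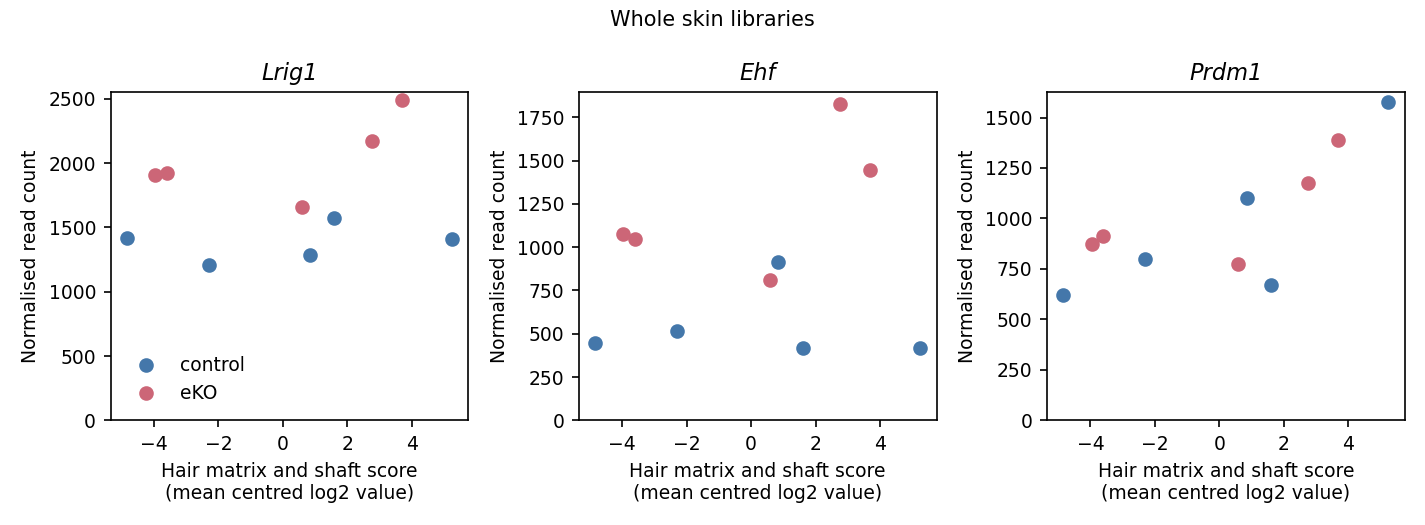
Normalised read count of Lrig1, Ehf and Prdm1, chosen after their values were seen, against the hair matrix and shaft score in the 10 skin libraries; each point is a library. Lrig1 separates by genotype over the range of scores and Ehf does so except for control replicate 3 (917), and the highest Prdm1 value (1579) is that of the control library with the highest score (5.24).

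In skin, 2 of 10 isthmus and infundibulum markers rose (median 0.70), Krt79 from 6223 ± 1765 to 20395 ± 5609 (log2 1.71, limma adjusted p 0.0206) and Cst6 by 1.71 (adjusted p 0.0308). Of 13 sebaceous genes 2 rose (median 0.90), Cidea by 1.57 (adjusted p 0.0308) and Far2 by 1.37 (adjusted p 0.0420). Of 16 tested partner regulators 1 was called, lower in eKO (median 0.15). Among all tested genes in skin, limma called 0.229% higher in eKO and 0.145% lower. Over 20 alternatives the differences of Krt79, Cst6, Cidea and Far2 ran from 1.60 to 1.86, 1.57 to 1.92, 1.38 to 1.67 and 1.21 to 1.51, but their calls were lost on leaving out any of several libraries. Krt79 was lost without control replicate 1, 2 or 5 or eKO replicate 1, 3 or 5 (up to 0.063), Cst6 without control replicate 1, 2, 3 or 5 or eKO replicate 1, 3 or 5 (up to 0.081) and Cidea without control replicate 2 or 3 or eKO replicate 1, 3, 4 or 5 (up to 0.098). Far2 was lost without any library other than control replicate 4 (up to 0.114). No gene of the paralog, ErbB and Met, differentiation, basal, bulge or stress lists was called by limma, with medians of 0.08, 0.04, 0.57, -0.27, 0.29 and 2.15. The summed sebaceous level was 17064 to 67826 in controls and 47413 to 72452 in eKO, overlapping, and the part of sebaceous gland content in the Ehf and Lrig1 differences was not tested.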

How the data were processed

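The files are tables of normalised read counts, 1 for the 10 skin and 1 for the 6 HFSC libraries. Per the submitters' processing notes, reads of both were placed on GRCm39, and featureCounts and DESeq2 are named for skin; the annotation, strand setting and counter of HFSC are not given in the sources used here. The deposited values are a signal, read counts divided by 1 size factor per library: 100% of nonzero values in all 16 libraries are whole multiples of 1 step within 0.01 of a read, so reads and depth were recovered. Names were matched for 94.1% of skin rows and 91.4% of HFSC rows.

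Genes reaching 10 in at least the number of libraries of the smaller group were tested with limma 3.58.1 (trended prior) on log2(value + 1), with Benjamini-Hochberg adjustment over all tested genes and a threshold of 0.05; folds compare mean log values on that scale, where the pseudocount shrinks differences of low genes, and can lie above or below the ratio of group means. The tests were checked on simulated data. Alternatives were edgeR 4.0.16 and DESeq2 1.42.0 on recovered reads, pseudocounts of 0.5 and 5, no filter or a minimum of 50, library size scaling, a constant prior, a hair score covariate, a replicate block and leaving out each library; after seeing the data, the 2 skin libraries without Ddx3y were also left out together. The 10 genes and all 14 lists were chosen with earlier results of these data known. The called genes with the largest differences of a list are named, up to 4, or 6 for paralogs and partner regulators. The stress keratinocyte, endothelial and hair matrix lists are left out of this naming. Exon lengths come from GENCODE M21. The listed names Loricrin (another name of Lor) and Krt85 were not matched. Some results of the partner regulator list are not reported here.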

Additional observations from a re-analysis of the deposited data

Results flagged for a closer look

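Among the 18 groups of 5 skin libraries formed by the 9 genes with reads, 2 held a library far from the other 4, where chance sets apart about 1 group in 20. Ehf was at 917 in skin control replicate 3, and the nearest control was at 513. Gata6 was at 387 in skin eKO replicate 3, and the nearest eKO library was at 253. The genotype effect was more positive in HFSC than in skin for Ehf (3.07 on the log2 scale), Klf5 (1.73) and Grhl3 (1.38), by limma's test of the difference between tissues.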

How the results depend on the processing

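Of 675 values of the 9 tested genes under alternatives, 621 kept their direction and side of the threshold, 24 lost a call, 5 gained one and 25 changed sign; the cause was not tested. The sign changes lie near 0 and none was called. For Trp63 in HFSC, edgeR gave 0.0115, DESeq2 0.0046, and leaving out 1 library -0.0333 to 0.0596. For Klf5 in skin the values were 0.0018 with library size scaling, 0.0472 without the libraries lacking Ddx3y, and -0.122 to 0.0898 with 1 library out. Prdm1 in skin was -0.0628 without the libraries lacking Ddx3y. The difference between tissues for Klf4 was 0.0257 by edgeR, 0.0022 without those libraries, and -0.120 to 0.0660 with 1 library out, and for Lrig1 it was -0.140 to 0.0063 with 1 library out. Slopes on the hair score without those libraries were -0.0163 for Gata6 and 0.0068 for Klf5; with 1 library out they were -0.0083 to 0.0530 and -0.0375 to 0.0031.

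Counts of called genes changed as follows. HFSC gave 2673 and, with a constant prior, 1437; leaving out 1 library gave 1540 to 2643. Skin gave 62, and 656 with DESeq2, 151 with the hair score, 37 without a filter, 34 with a constant prior, 32 with library size scaling and 0 without the libraries lacking Ddx3y (1790 at an unadjusted p under 0.05); leaving out 1 library gave 11 to 59. The difference between tissues gave 743, and 452 to 837 with 1 library out. The hair slope gave 384, 251 at a minimum of 50, and 134 to 431 with 1 library out. Library size scaling turned the HFSC split from 1468 higher and 1205 lower to 1271 and 1537, the tissue split from 455 and 288 to 372 and 394, and the slope split from 212 and 172 to 348 and 120; the skin split without a filter was 29 and 8, against 38 and 24.

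A replicate block in HFSC called 2696 genes, 2502 of them shared, and the same 6 of the 9 genes; same-numbered libraries did not deviate together (r -0.06, -0.02 and -0.03). Low read counts of Gata6, Prdm1 and Grhl3 in HFSC controls limit their precision, and Ehf rested on 44 to 59 reads per library there.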
